A study of Mus musculus with 41 samples.

Results

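The 10 genes described here encode the calcium cycle of striated muscle and the junctophilins that hold its membranes together: Ryr1, Atp2a1, Atp2a2, Casq1, Casq2, Cacna1s, Jph1, Jph2, Pvalb and Sln. They are 10 of the 21755 protein-coding genes annotated on chromosomes 1 to 19 and X of the mm10 mouse genome. They were chosen by name, with earlier results of these data known. Each was examined in all 24 deposited peak lists for peaks in its promoters (2 kb to either side of each annotated start site) and in its gene body. The long second intron of Jph2 was added as a case away from any promoter.

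In a muscle fibre, depolarisation is sensed by Cacna1s, the pore subunit of the L-type channel in the transverse tubule, which opens Ryr1, the release channel of the sarcoplasmic reticulum. Casq1 and Casq2 bind calcium in the reticulum lumen, Atp2a1 and Atp2a2 (SERCA1 and SERCA2) pump it back, Sln inhibits the pump, and Pvalb buffers calcium in the cytoplasm of fast fibres. Jph1 and Jph2 bridge the tubule and the reticulum. Atp2a1 and Casq1 are the forms typical of fast fibres, while Atp2a2, Casq2 and Sln are prominent in heart or slow muscle.

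The study mapped histone marks by CUT&Tag, a method that tethers a transposase to antibody-bound chromatin and sequences the fragments it releases. H3K18la (lactylation), H3K27ac (acetylation) and H3K4me3 are found at active promoters or enhancers, and H3K27me3 is the mark of Polycomb repression. The 41 samples were pooled by cell type and mark before peaks were called, so each of the 24 lists stands for 1 or 2 samples (17 lists of 2 and 7 of 1), and a list has no replicate spread. In such bulk samples fewer cells of a type and less of a mark per cell cannot be told apart. The comparisons between muscle and other cells ask which genes carry a mark in 1 tissue and not in another, with the cell type as the unit.

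The muscle samples were snap-frozen whole gastrocnemius (GAS), primary myoblasts (MB) and the myotubes formed from them after 3 days in differentiation medium (MT). Post-ischemia macrophages (PIM) were sorted as CD45+CD11b+F4/80+CD64+ cells from calf muscle 2 days after artery ligation, and bone marrow-derived macrophages (BMDM) were grown for 7 days with M-CSF. Muscle and macrophage samples came from female C57Bl6/J mice of 8 to 12 weeks. White adipocyte nuclei (ADIPO) came from epididymal fat of 10-week-old female AdipoCre-NuTRAP mice, a reporter line driven by adipocyte Cre. The embryonic stem cells were the E14 line, grown in serum-LIF (mESC-ser) or 2i-LIF (mESC-2i), and they alone were processed as whole cells and not as nuclei. H3K18la was mapped in all 8 cell types, H3K27me3 in all but ADIPO, H3K27ac in GAS, ADIPO, PIM, BMDM and mESC-ser, and H3K4me3 in GAS, PIM, mESC-ser and mESC-2i. Sample labels also give a tag, either antibody or histone. The tag was histone for ADIPO, for mESC-2i and for H3K27ac of GAS, PIM and mESC-ser. It was antibody for all other samples, so it was uneven between the muscle and the other H3K18la lists.

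The lists differed in size, which sets how easily a gene is called. H3K18la lists held 13550 to 36813 peaks over 22.6 to 137 Mb, H3K27ac lists 27.4 to 197 Mb, H3K4me3 lists 40.9 to 65.1 Mb and H3K27me3 lists 54.8 to 173 Mb. All 5 fibre markers examined (Ckm, Acta1, Myh4, Mylpf, Tnnt3) had an H3K18la promoter peak in GAS and MT, and 1 of 5 (Tnnt3) had one in MB. In each of BMDM, PIM, mESC-ser and mESC-2i only Mylpf did, a gene called in GAS, MT, ADIPO and those 4 lists alike. ADIPO had 2 of 5, Acta1 and Mylpf. The GAS H3K18la list also held all 3 endothelial and all 3 fibroblast markers and 2 of 4 macrophage markers. The cultured MT list held 3 of 4 macrophage markers (Csf1r, Cd68, Spi1), 1 endothelial (Pecam1) and 1 fibroblast marker (Col1a1). Some of these genes do not separate the cell types here, since Pecam1 was called in all H3K18la lists but ADIPO, and Cd68 in all but GAS and MB. The other lists held markers of further cell types too, Pecam1, Cdh5, Adipoq and Fabp4 in both PIM and BMDM, Col1a1, Dcn, Cd68 and Spi1 in ADIPO, and Pdgfra in both stem cell lists. The part of other cells in the values below was not tested.

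The promoters of Atp2a1, Casq1 and Jph2 are shown because they lay under wide peaks in muscle, and both promoters of Pvalb because active and repressive peaks met there. Each sequence is from RefSeq (GRCm38.p6, the same assembly as mm10) and runs 5′ to 3′ along the gene from 220 bases before a start site to base 30 of the transcript. Of the 10 genes, 7 had a promoter in that table, and Atp2a2, Jph1 and Sln did not. Capitals mark matches on either strand to an E-box (CANNTG), an MCAT element, a TATA box, the MEF2 motif or the CArG box.
Atp2a1 promoter, chr7:126463044-126463293, minus strand: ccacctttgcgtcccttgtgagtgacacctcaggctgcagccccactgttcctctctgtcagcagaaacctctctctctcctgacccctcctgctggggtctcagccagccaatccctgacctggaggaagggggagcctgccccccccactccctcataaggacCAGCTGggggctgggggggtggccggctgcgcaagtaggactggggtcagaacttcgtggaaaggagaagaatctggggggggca
Casq1 promoter, chr1:172219866-172220115, minus strand: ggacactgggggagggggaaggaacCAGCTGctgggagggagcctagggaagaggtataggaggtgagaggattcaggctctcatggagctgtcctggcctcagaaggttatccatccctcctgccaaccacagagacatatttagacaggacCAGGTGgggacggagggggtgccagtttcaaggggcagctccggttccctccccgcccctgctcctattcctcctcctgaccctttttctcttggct
Jph2 promoter, chr2:163397964-163398213, minus strand: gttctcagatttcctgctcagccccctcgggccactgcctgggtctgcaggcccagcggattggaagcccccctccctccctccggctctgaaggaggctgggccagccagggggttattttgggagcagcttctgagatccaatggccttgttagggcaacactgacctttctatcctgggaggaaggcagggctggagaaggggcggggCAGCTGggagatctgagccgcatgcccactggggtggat
Pvalb upstream promoter, chr15:78206371-78206620, minus strand: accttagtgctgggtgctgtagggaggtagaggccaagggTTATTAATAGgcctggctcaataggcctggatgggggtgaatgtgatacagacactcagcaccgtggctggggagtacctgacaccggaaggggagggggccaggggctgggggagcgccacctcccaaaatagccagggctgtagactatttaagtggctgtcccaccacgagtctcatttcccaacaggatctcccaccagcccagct
Pvalb downstream promoter, chr15:78204208-78204457, minus strand: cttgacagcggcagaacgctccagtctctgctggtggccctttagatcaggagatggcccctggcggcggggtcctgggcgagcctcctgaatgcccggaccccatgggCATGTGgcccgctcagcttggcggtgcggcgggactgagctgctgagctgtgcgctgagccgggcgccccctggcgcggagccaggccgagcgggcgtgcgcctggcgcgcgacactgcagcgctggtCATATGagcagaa

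Of the 7 genes with a promoter in the table, 4 held the E-box CAGCTG (Atp2a1, Casq1, Jph2 and Cacna1s, the last not printed) and Casq2, Ryr1 and Pvalb did not, while 13.8% of the 32619 RefSeq promoters of this length held it. The wider pattern CANNTG, which includes it, was in 66.2% of promoters. A MEF2 motif lay in the upstream Pvalb promoter and in that of Casq2, against 1.55% of promoters. The MCAT element (CATTCC) was in that of Cacna1s alone among the 7 genes, and in 12.4% of promoters. The TATA box was searched as TATAAA, which 11.7% held, and 1.40% held a CArG box. None of the 5 printed promoters held any of these last 3 motifs. The downstream Pvalb promoter held 23 CpG dinucleotides, more than 84.4% of promoters, whereas the upstream one held 4. The Atp2a1, Casq1 and Jph2 promoters held 4, 3 and 5, below the median of 6.00 over all promoters. These matches describe letters only.

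H3K18la was called at more of these promoters in GAS and MT than in any of the other 6 lists. In GAS 8 of the 10 genes had an H3K18la promoter peak, against 36.1% of all protein-coding genes, and in MT the same 8 genes did, against 34.8%. The 2 genes without one in either list were Atp2a2 and Sln. In MB the count was 2 of 10 (Casq2 and Jph2) against 11.1%, and the MB peak of Casq2 lay at an internal start site, 54990 bp into the gene, so only Jph2 was called at its 5′ promoter in MB.

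Outside muscle the counts were all below those of GAS and MT, and those of both stem cell lists were above that of MB. ADIPO had 1 of 10 (Casq1, in a peak that began 1725 bp downstream of the start site) against 44.7%. PIM had 0 of 10 against 37.8%, and BMDM 0 of 10 against 18.5%. The stem cells had more, 5 of 10 in mESC-ser (Ryr1, Atp2a1, Atp2a2, Casq1, Casq2), above its background of 33.4%, and 3 of 10 in mESC-2i against 37.8% (Ryr1, Atp2a2, Casq2). A peak that held the 5′ start site itself was found at 8 genes in GAS, 7 in MT, 1 in MB, 1 in mESC-ser, 2 in mESC-2i and 0 in the remaining H3K18la lists. The share of all genes with such a peak was not computed, so these counts are description only.

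The other active marks gave a like picture in GAS. H3K27ac was called at 7 of 10 promoters in GAS against 47.0%, all but Atp2a2, Casq2 and Sln. It was called at 2 in ADIPO against 46.1% (Casq1 and Jph1), in a list that pools a shallow replicate, 1 in PIM against 48.8% (Atp2a2), 0 in BMDM against 34.0% and 3 in mESC-ser against 40.2% (Ryr1, Atp2a2, Casq1). H3K4me3 was called at 9 of 10 in GAS against 64.2%, all but Sln. It was called at 2 in PIM against 59.4%, 2 in mESC-ser against 48.8% and 3 in mESC-2i against 61.8%. Atp2a2 and Jph1 were called in each of those 3 lists, and Cacna1s was the added gene in mESC-2i, where the peak in its 5′ window held the start of the neighbouring gene Ascl5 and another lay at an internal start site.

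H3K27me3 was called at more of these promoters in each non-muscle list than in any muscle list. The muscle counts were near or above the shares over all genes. Over all protein-coding genes, 18.9% of gene and list pairs were called in muscle and 23.8% elsewhere. H3K27me3 was called at 3 of 10 promoters in GAS against 23.9% (Ryr1, Cacna1s, Pvalb), 2 in MT against 20.1% and 2 in MB against 12.5% (Cacna1s and Pvalb in both). It was called at 5 in PIM against 26.4% and 5 in BMDM against 19.2% (Ryr1, Cacna1s, Jph1, Jph2, Pvalb in both), 4 in mESC-ser against 27% and 7 in mESC-2i against 22.5%. Jph1 and Jph2 were called in all 4 non-muscle lists and in none of the 3 muscle lists. Atp2a2, Casq2 and Sln had no H3K27me3 promoter peak in any of the 7 lists.

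**Figure D1:**
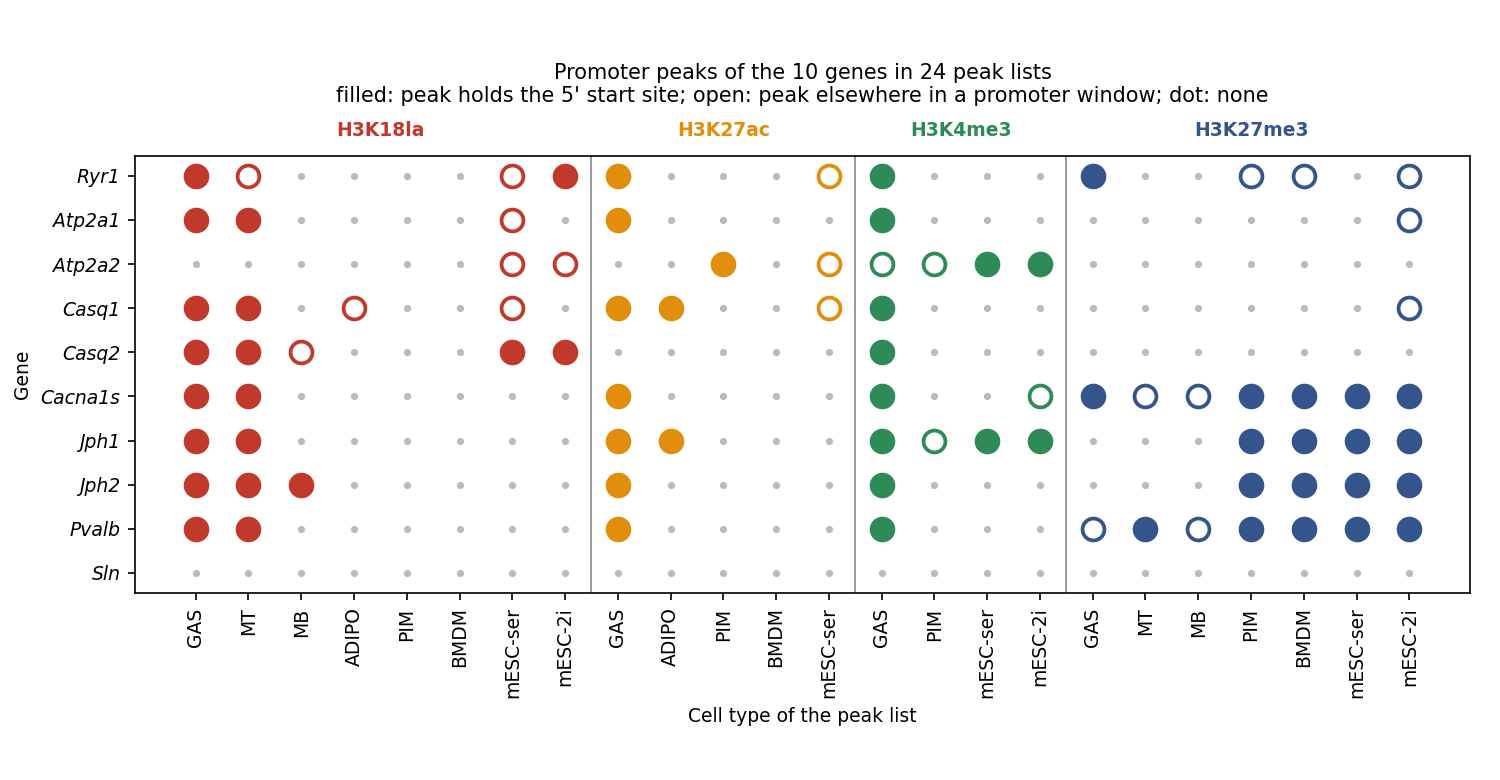
Promoter peaks of the 10 genes (rows) in the 24 lists (columns, grouped by mark). Filled circles mark a peak that holds the 5′ start site, open circles a peak elsewhere in a promoter window and small dots no peak. GAS and MT have 8 H3K18la circles each, and Jph1 and Jph2 have H3K27me3 circles in the 4 non-muscle lists only.

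Peaks that lay in the gene body and touched none of that gene's own promoter windows were also counted for H3K18la. They were found in 7 of the 10 genes in GAS (21.3% of all genes), 5 in MT (20%) and 3 in MB (11.2%). They were found in 1 gene each in ADIPO (18.3%), PIM (17.9%) and BMDM (12.4%), and in 3 genes each in mESC-ser (14.9%) and mESC-2i (15.3%). Long genes offer more room for such peaks, and the 10 genes ran from 4.40 kb (Sln) to 133 kb (Jph1).

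The share of each gene's bases (body plus promoters) under peaks was compared between the 3 muscle and the 5 other cell types by an exact two-sided permutation test over cell types. Such a test takes the cell types as independent units. Some are related: MT were formed from MB, mESC-ser and mESC-2i are the same line, and PIM and BMDM are both macrophages. The test was run for all genes with any coverage, 16440 for H3K18la, and adjusted by Benjamini-Hochberg over them. No gene of the 16440 reached an adjusted p of 0.05 (smallest 0.730), while 646 genes (3.93%) had an unadjusted p under 0.05, and with 56 assignments the smallest p possible was 0.0179. Over the 9 of the 10 genes that had any H3K18la, 7 were higher in muscle, as were 39.6% of all genes tested, and the median difference was 17.60 percentage points, against a median of -1.29 over all genes tested. The median rested in part on GAS, without which it was 8.89 points, against -2.40 over all genes tested. Only Jph2 had every muscle list above every other list, an order that 2.50% of all tested genes had. That count rested on MB. Without that list 6 of the 10 genes had this order (Atp2a1, Casq2, Cacna1s, Jph1, Jph2, Pvalb), and so did 10.3% of all tested genes. None of the 10 had the opposite order, which 0.718% had.

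For H3K27me3 the test set 3 muscle against 4 other cell types, with 10992 genes tested, 35 assignments and a smallest possible p of 0.0286. Again no gene passed after adjustment (smallest 0.408), and 770 genes (7.01%) had an unadjusted p under 0.05. All 7 covered genes were lower in muscle, as were 59.9% of all genes tested, with a median difference of -12.90 percentage points against -1.35 over all genes tested. Without mESC-2i the median was -20.4 points over the 5 genes still covered, against -0.943. Ryr1, Jph1 and Jph2 had every muscle list below every other list (without MT 5 genes did, against 9.41% of tested genes), which 7.23% of tested genes had, and none had every muscle list above, which 3.73% had.

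**Figure D2:**
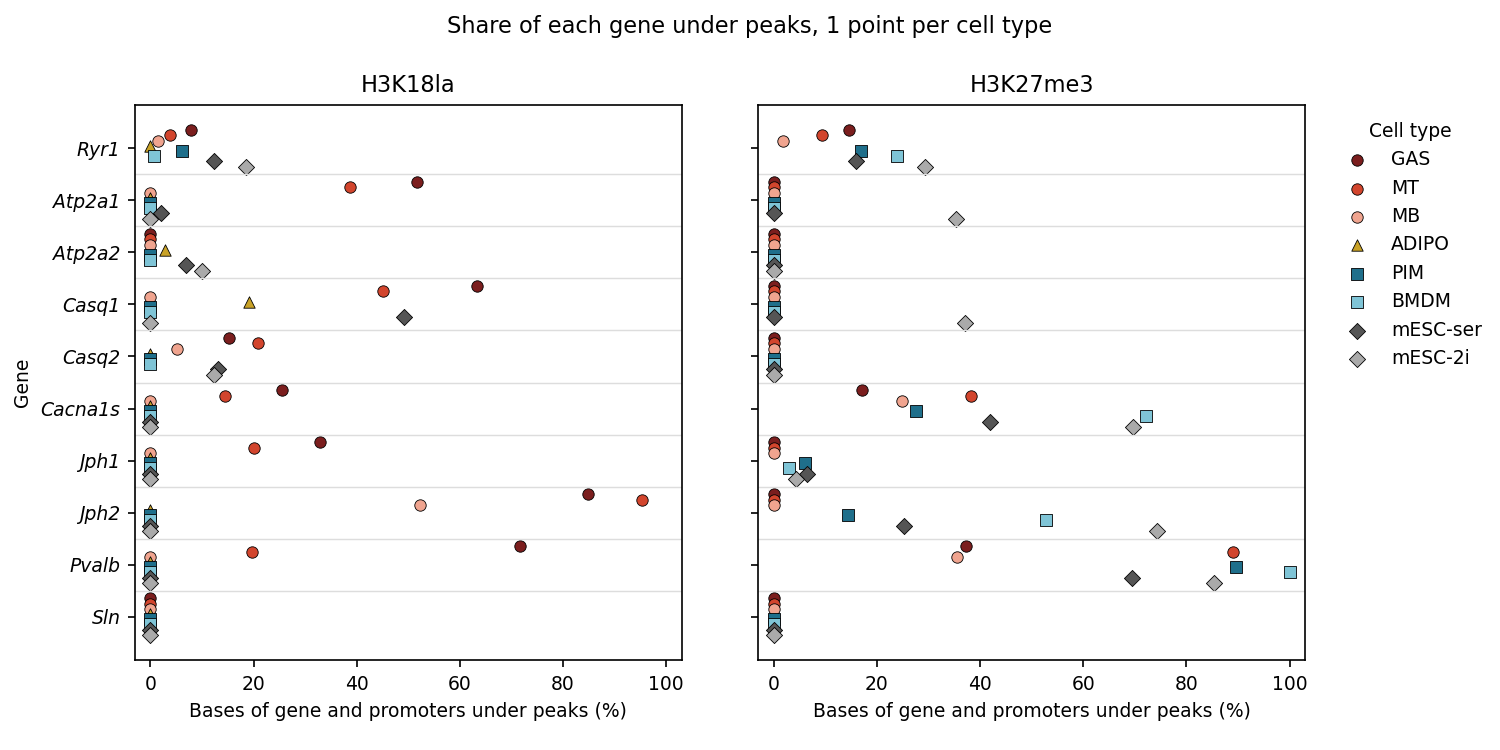
Share of the bases of each gene and its promoters under H3K18la (left) and H3K27me3 (right) peaks, in percent, with 1 point per cell type and no replicate error because samples were pooled before calling. Jph2 reaches 95.3% for H3K18la in MT and is at 0% in all 5 non-muscle lists. For H3K27me3 it is at 14.3% to 74.4% in the 4 non-muscle lists and at 0% in muscle.

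Cacna1s, the voltage sensor, carried active and repressive marks together. H3K18la covered 25.5% of the gene in GAS and 14.5% in MT, and no H3K18la peak touched it in the other 6 lists. The difference of 13.3 percentage points between muscle and the rest had an exact permutation p of 0.107 (adjusted 0.878), and MB at 0% overlapped the other cells. The difference was 7.23 points without GAS and 20 without MB. In GAS the promoter peak was 3061 bp wide and ranked in the top 19% of the list by total signal. Stronger peaks began 6848 and 12266 bp into the gene (top 6.93% and 8.56%), so the promoter was not its strongest site.

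H3K27me3 at Cacna1s was called in all 7 lists. It covered 17.1% of the gene in GAS, 38.2% in MT and 24.8% in MB, and 27.5% in PIM, 41.9% in mESC-ser, 69.7% in mESC-2i and 72.1% in BMDM. Muscle and other lists overlapped (exact permutation p = 0.114, adjusted 0.614). In GAS 35.5% of the H3K18la-covered bases of Cacna1s also lay under an H3K27me3 peak, and in MT 13.4% did. The 5′ window of Cacna1s overlaps that of Ascl5, whose start lies 1946 bp upstream, and the H3K27me3 peaks at the Cacna1s promoter held the Ascl5 start in all 7 lists, so the H3K27me3 of the 2 genes cannot be told apart there.

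Ryr1, the release channel, was marked at its start in GAS by all 4 marks. The H3K18la peak there was 4203 bp wide (top 18.8%), the H3K27ac peak 9882 bp (top 8.78%), the H3K4me3 peak 5362 bp (top 5.19%) and the H3K27me3 peak 3186 bp (top 54.0%). In MT the H3K18la peak began 280 bp downstream of the start site, and MB had none there. By share covered, Ryr1 and Atp2a2 were the genes with a lower H3K18la mean in muscle. H3K18la covered 7.89% in GAS, 3.81% in MT and 1.47% in MB, but 18.6% in mESC-2i, 12.3% in mESC-ser, 6.04% in PIM, 0.645% in BMDM and 0% in ADIPO, all for Ryr1. The stem cell lists lay above all muscle lists, and the muscle mean was lower by 3.13 percentage points (exact permutation p = 0.571, adjusted 0.947), a direction that turned to 1.32 points higher with promoters alone and 2.16 points higher among the cell types processed as nuclei. With 1 list left out it ranged from -5.01 (without ADIPO) to -0.348 (without mESC-2i), and it was -4.88 without GAS, -4.84 without BMDM, -1.94 without mESC-ser and -1.67 without MB.

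Of the Ryr1 H3K18la peaks outside muscle, 1 of 14 held the start site, and the others began 33445 bp or more into the gene. In PIM a 2445 bp H3K18la peak in the top 4.04% of the list began 80565 bp into the gene, and a PIM H3K27ac peak in its top 6.29% began at 80951 bp. H3K18la peaks of GAS, MT and BMDM began 80338 to 82034 bp into the gene, and one of mESC-ser at 83742 bp. The miRNA gene Gm44408 starts 79551 bp into Ryr1, and whether these peaks bear on Ryr1 was not tested. H3K27me3 covered 1.83% (MB) to 14.5% (GAS) of Ryr1 in muscle and 16.0% to 29.4% elsewhere, and the groups did not overlap (difference -12.9 points, exact permutation p = 0.0286, adjusted 0.408).

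The 2 calcium pumps differed. Atp2a1, the fast-fibre pump, lay under a 13197 bp H3K18la peak in GAS (rank 714 of 36813, top 1.94%) and a 9230 bp peak in MT (top 6.68%). They covered 51.6% of the gene in GAS and 38.6% in MT. MB, ADIPO, PIM, BMDM and mESC-2i had 0%, and mESC-ser had 2.05% from a peak that only reached the window from 1602 bp upstream. Muscle was higher by 29.6 points (exact permutation p = 0.107, adjusted 0.878), with MB among the zeros. It was higher by 18.9 points without GAS and by 44.7 without MB. In GAS its H3K4me3 peak was 12032 bp wide and ranked 65 of 28915 (top 0.225%), and its H3K27ac peak was 28451 bp wide (top 0.564%). All H3K18la-covered bases of Atp2a1 in GAS lay under both. H3K27me3 touched Atp2a1 only in mESC-2i, with 35.4% covered.

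Atp2a2, the pump of slow and cardiac muscle that most other cells also use, had neither H3K18la nor H3K27ac in any muscle list. The nearest H3K18la peak lay 12.1 kb from the gene in GAS, 5.39 kb in MT and 148 kb in MB. H3K18la at its promoter was called only in the stem cells, as a 2702 bp peak that ended 134 bp upstream of the start site in mESC-2i (top 45.9%) and a 1564 bp peak in mESC-ser (top 83.6%). H3K27ac was called in PIM, where a 2151 bp peak held the start site (top 22.1%), and in mESC-ser. Further H3K18la peaks in ADIPO, mESC-ser and mESC-2i lay at its 3′ end. H3K4me3 was called in all 4 lists that mapped it, with widths of 970 bp in GAS and 5072 bp in mESC-ser for the strongest peak. H3K27me3 was called in none of 7 lists. Its H3K18la mean was lower in muscle by 3.93 points (exact permutation p = 0.286, adjusted 0.878). Without mESC-2i this difference was -2.42 points. Absence from a list means that the region was not among the top 1% of regions kept by the caller, not that the mark was absent.

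Sln, the pump inhibitor, had no peak of any mark in any of the 24 lists, in its 4.40 kb body or its promoter. The nearest peak in GAS lay 13.5 kb away for H3K18la, 13.0 kb for H3K27ac, 182 kb for H3K4me3 and 10.2 kb for H3K27me3. It was the only one of the 10 genes without a peak, and it is also the shortest.

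The 2 calsequestrins also differed. Casq1, the fast-fibre form, had a 10468 bp H3K18la peak over its start in GAS (rank 501, top 1.36%) and a second peak of 8419 bp that began 9669 bp downstream and held the start of the next gene, Pea15a. H3K18la covered 63.4% of Casq1 in GAS, 45.1% in MT and 0% in MB. It covered 49.1% in mESC-ser, 19.1% in ADIPO and 0% in PIM, BMDM and mESC-2i. Muscle was 22.5 points higher, which did not exceed the spread between cell types (exact permutation p = 0.393, adjusted 0.878). It was 8.89 points higher without GAS and 40.6 without MB. In mESC-ser no peak held the 5′ start site, and the stronger of 2 peaks lay 3629 bp downstream, near an internal start site whose window an antisense gene, Gm17224, shares.

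Among the active marks in GAS, the H3K27ac peak over Casq1 was the widest at any of the 10 genes. It was 36933 bp wide, ranked 102 of 35286 (top 0.289%), covered all of the gene and also held the start of Pea15a. ADIPO had H3K27ac at the Casq1 start in a 1753 bp peak of low rank (top 84.5%). H3K27me3 touched Casq1 only in mESC-2i, through a peak near the bottom of its list (top 99.1%).

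Casq2, the cardiac and slow form, was covered by H3K18la in all 3 muscle lists and in both stem cell lists. The share was 15.3% in GAS, 20.8% in MT and 5.14% in MB, and 13.0% in mESC-ser, 12.4% in mESC-2i and 0% in ADIPO, PIM and BMDM. Muscle was 8.66 points higher (exact permutation p = 0.143, adjusted 0.878), and 5.14 points higher without MT. The sign turned to -1.07 when each list was held to its 5000 strongest peaks. The promoter peak ranked higher in the stem cells (top 9.61% in mESC-ser and 22.4% in mESC-2i) than in GAS (top 30.6%) or MT (top 36.7%), each within its own list. In both stem cell lists a further peak began at the same base, 14089 bp into the gene. The MT list had a 7446 bp peak in its top 8.18% that began 11069 bp into the gene and overlapped them. Neither stem cell list of H3K4me3 touched Casq2, and H3K27me3 was called in none of 7 lists. Casq2 was also the only one of the 8 genes with H3K18la in GAS that had no H3K27ac at its promoter there.

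Jph1, the skeletal junctophilin, was covered by H3K18la to 32.9% in GAS (11 peaks) and 20% in MT (9 peaks), and not at all in the other 6 lists, MB among them. The nearest H3K18la peak in MB was 173 kb away. Muscle was 17.6 points higher (exact permutation p = 0.107, adjusted 0.878), with 10 points without GAS and 26.4 without MB. The strongest GAS peak was not at the 5′ start. It was 13335 bp wide (rank 583, top 1.58%) and began 92901 bp into the gene, in the window of an internal start site, while the 5′ peak was 4298 bp wide (top 13.7%). H3K4me3 ranked the 5′ end first, with a 7335 bp peak (top 1.11%), and gave no peak in the window of the internal site in GAS.

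H3K4me3 was also called at the 5′ end of Jph1 in PIM, mESC-ser and mESC-2i, and so was H3K27me3. A repressive peak held the 5′ start site in each of PIM (10979 bp), BMDM (5008 bp), mESC-ser (3750 bp) and mESC-2i (2089 bp). Together with a second peak in the gene body in both stem cell lists, H3K27me3 covered 2.91% (BMDM) to 6.48% (mESC-ser) of the gene. The 3 muscle lists had 0% (difference -4.94 points, exact permutation p = 0.0286, the smallest possible, adjusted 0.408). In mESC-2i both peaks ranked high, in the top 8.88% for H3K4me3 and the top 19.5% for H3K27me3.

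Jph2, the junctophilin shared by heart and skeletal muscle, was the gene most evenly set apart in muscle. H3K18la covered 84.8% of it in GAS, 95.3% in MT and 52.3% in MB, and no H3K18la peak touched it in ADIPO, PIM, BMDM, mESC-ser or mESC-2i. The lowest muscle value was thus above the highest other value of 0%, and the difference was 77.5 points (exact permutation p = 0.0179, the smallest possible, adjusted 0.730). It was at least 68.6 points when each cell type was left out in turn. In GAS H3K27ac covered 93.8% of Jph2, and 95.9% of the H3K18la-covered bases lay under it. H3K4me3 covered 28.0%, of which 98.2% was shared with H3K18la.

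H3K27me3 had the reverse pattern at Jph2. It covered 14.3% in PIM, 25.3% in mESC-ser, 52.7% in BMDM and 74.4% in mESC-2i, and 0% in all 3 muscle lists (difference -41.7 points, exact permutation p = 0.0571, adjusted 0.534). In all 4 non-muscle lists a peak held the start site and another covered the 3′ end. In both stem cell lists the strongest H3K27me3 peak that touched the region described next had its highest signal at the same base, 163376306 of chromosome 2, inside exon 2.

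**Figure D3:**
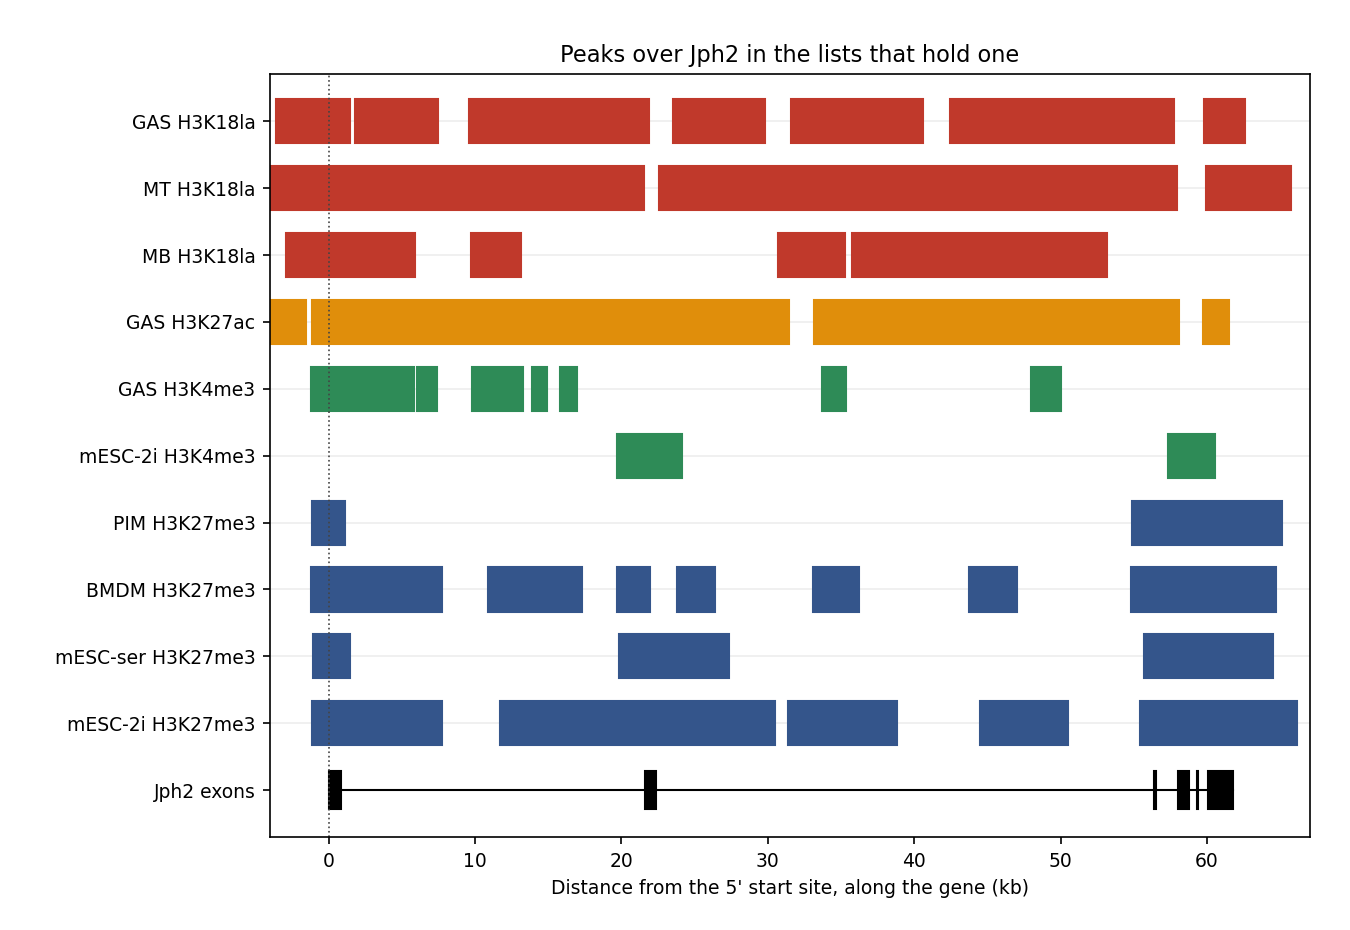
Peaks over Jph2 in the 10 lists that hold one, by distance in kb from the 5′ start site along the gene, with exons in black. Peaks that run past the drawn range are cut at its edge. The 3 muscle H3K18la rows and GAS H3K27ac fill most of the gene, and the H3K27me3 rows are from PIM, BMDM, mESC-ser and mESC-2i.

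The Jph2 intronic region was chosen among the H3K18la peaks of GAS, MT and MB inside the gene that touched no promoter of any gene, as the one of largest total signal, so its strength in muscle is a description. Total signal is not scaled between lists, and by rank number the MB peak given below comes before it. It was the MT peak at chr2:163340024-163375437, 35414 bp wide, which began 22.6 kb from the start site and ranked 27 of 33991 (top 0.0794%). It spanned nearly all of intron 2, the third exon of 119 bp and most of intron 3. In MB the strongest peak in the region was 17401 bp wide and ranked 18 of 13550 (top 0.133%), and 62.2% of the region was covered. In GAS the region was covered to 86.7% by 3 peaks, of which the strongest was 15359 bp wide and ranked 647 (top 1.76%). The other 5 H3K18la lists had no peak in it.

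For other marks the region was covered to 95.2% by H3K27ac in GAS and to 0% by H3K27ac in ADIPO, PIM, BMDM and mESC-ser. H3K4me3 covered 10.4% in GAS and 6.27% in mESC-2i. H3K27me3 covered 8.72% in PIM, 34.6% in BMDM, 19.9% in mESC-ser and 67.4% in mESC-2i, and none in GAS, MT or MB.

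The position of highest H3K18la signal in the region was nearly the same in both cultures, chr2:163347805-163347806 in MT and chr2:163347802-163347802 in MB. In GAS the peak of largest total signal in the region had its highest signal at chr2:163353891-163353897, and a weaker GAS peak in the region (9032 bp, top 5.41% by total signal) had a higher maximum (top 2.13% against 5.15%). The 300 bases around the MT position, from the mm10 genome along the strand of the gene, are shown because 2 separate lists had their highest signal there. Capitals mark the same motifs as above.
Jph2 intron 2 window, chr2:163347656-163347955, minus strand: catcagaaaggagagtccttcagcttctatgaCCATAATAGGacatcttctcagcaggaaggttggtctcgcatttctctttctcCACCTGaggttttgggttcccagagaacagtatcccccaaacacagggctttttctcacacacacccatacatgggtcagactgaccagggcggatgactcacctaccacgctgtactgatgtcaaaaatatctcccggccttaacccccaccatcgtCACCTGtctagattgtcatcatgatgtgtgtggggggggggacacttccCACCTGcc
The window held 3 E-boxes of the form CACCTG and 1 CArG box, and no MEF2 motif. Of 33991 windows of the same length around the highest signal of each MT H3K18la peak, 84.8% held an E-box (CANNTG), 1.57% a CArG box and 4.59% a MEF2 motif. Of the 300 bases, 71 are repeat-masked in the reference.

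Pvalb, the cytoplasmic buffer of fast fibres, carried H3K18la and H3K27me3 together, as Cacna1s did. H3K18la covered 71.6% of it in GAS and 19.7% in MT, and 0% in the other 6 lists. Muscle was 30.5 points higher with MB at 0% (exact permutation p = 0.107, adjusted 0.878). It was 9.86 points higher without GAS and 45.7 without MB. In GAS a 6551 bp peak held the upstream start site (top 8.97%) and a 6570 bp peak began 8753 bp into the gene. H3K27ac covered 94.7% of Pvalb in GAS in 1 peak of 16370 bp (top 2.23%), and H3K4me3 covered 59.8%.

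H3K27me3 at Pvalb was called in all 7 lists. It covered 37.2% in GAS, 89.1% in MT and 35.5% in MB, and 69.4% in mESC-ser, 85.4% in mESC-2i, 89.7% in PIM and 100% in BMDM. MT lay among the non-muscle values (exact permutation p = 0.171, adjusted 0.681). The difference of -32.2 points became -49.8 without MT. In MT the H3K27me3 peak was 27536 bp wide and ranked in the top 5.8%, and 78.8% of the H3K18la-covered bases of Pvalb lay inside it. In GAS 14.7% did. There the H3K27me3 peaks began 483 and 4148 bp downstream of the upstream start site and lay on either side of the downstream start site, so that neither start site was inside a peak.

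Such double calls were counted over all genes. In GAS 3 of the 10 genes (Ryr1, Cacna1s, Pvalb) had promoter peaks of both H3K18la and H3K27me3, against 4.56% of all genes, and in MT 2 (Cacna1s and Pvalb), against 3.14%. The lists were made from separate samples, so the marks may lie on different nuclei of the tissue, and this was not tested. In GAS 7 of the 8 genes with H3K18la also had H3K27ac, as 84.3% of all genes with H3K18la did, and all 8 had H3K4me3, as 94.3% did.

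**Figure D4:**
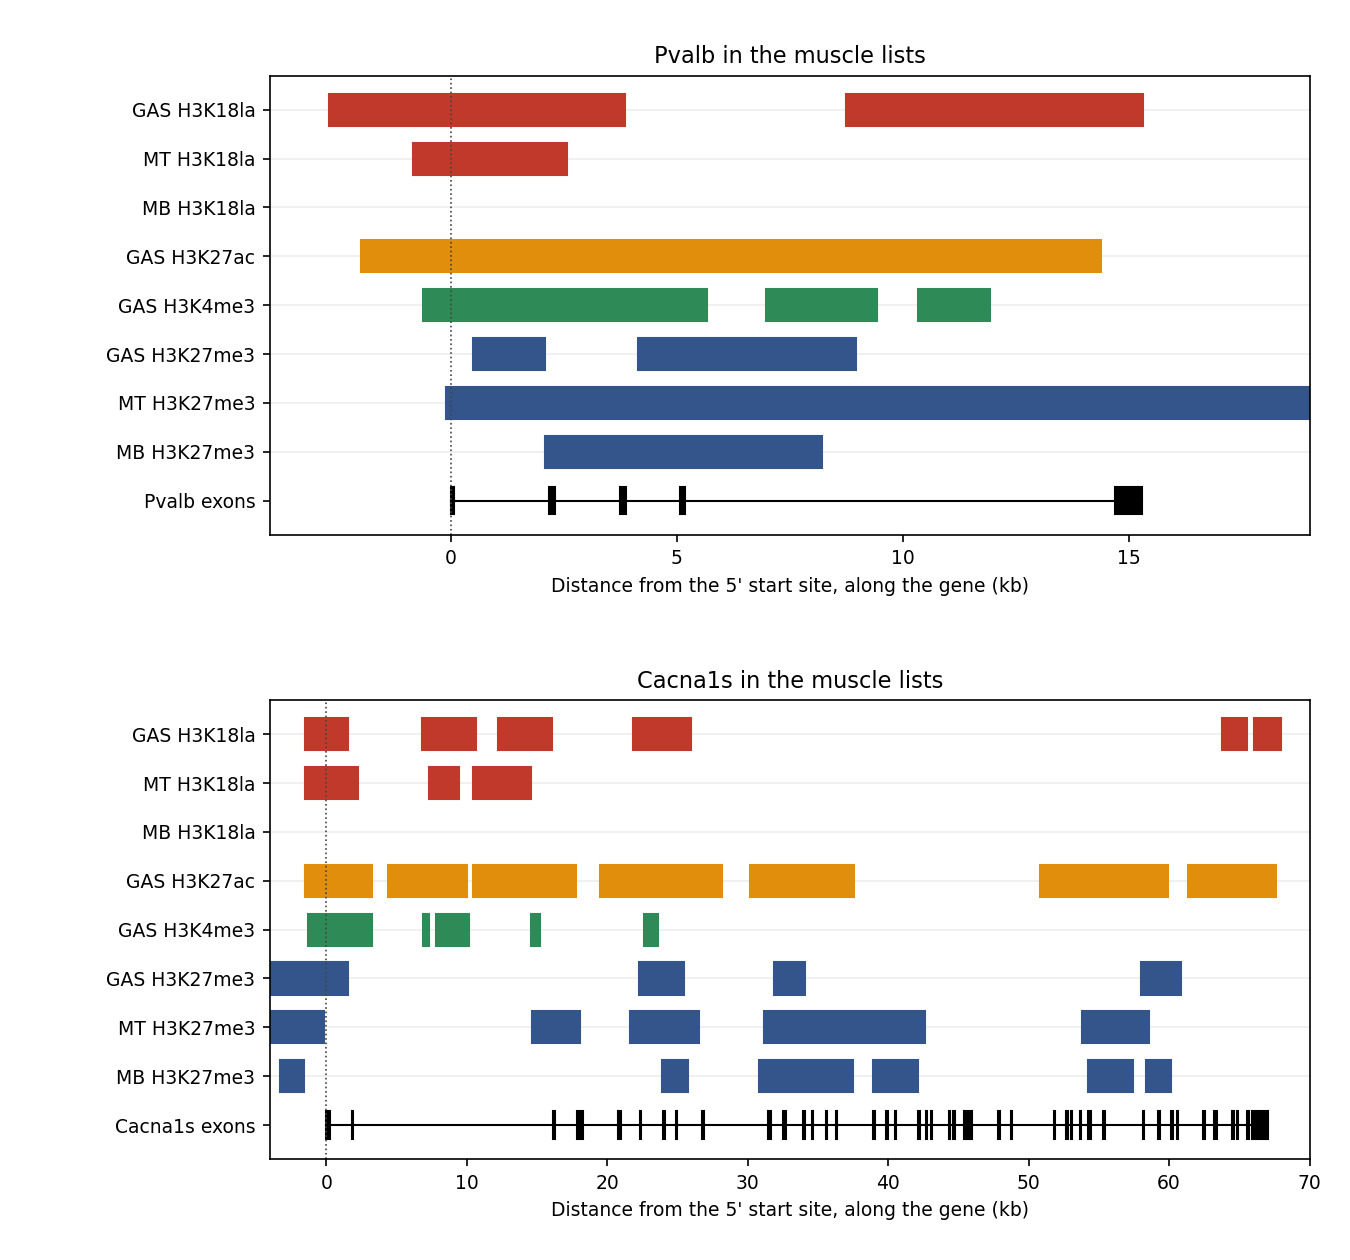
Peaks of the 8 muscle lists over Pvalb (top) and Cacna1s (bottom), by distance in kb from the 5′ start site along the gene, with exons in black and peaks cut at the edge of the drawn range. In Pvalb the GAS H3K27me3 peaks lie beside the start site, and the MT H3K27me3 peak runs over it and through the whole gene. In Cacna1s repressive peaks lie over the 5′ end in GAS and end 160 bp upstream of it in MT.

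Width and rank within the GAS lists differed widely between the genes. For H3K18la the strongest peak at Casq1, Jph1, Jph2 and Atp2a1 was in the top 1.36% to 1.94% and 10468 to 15359 bp wide, where the median peak of the list was 2331 bp. Cacna1s (top 6.93%) and Pvalb (top 8.97%) followed, then Ryr1 (top 18.8%) and Casq2 (top 30.6%). The median over the 8 genes with a peak was the top 4.43%, and the same peaks ranked by maximum signal had a median at the top 8.57%. In H3K4me3 the order was led by Atp2a1, then Jph2 (top 0.56%), Casq1 (top 1.03%) and Jph1 (top 1.11%), and it ended with Casq2 (top 27.2%) and Atp2a2 (top 49.6%). The order depended on the measure. With the same peaks, chosen by total signal, ranked by their maximum signal, Jph1 led H3K4me3 (top 5.41%), Pvalb, Casq1, Atp2a1 and Jph2 followed (top 15.0% to 21.0%), and the median moved from the top 3.42% to the top 21.0%. For H3K18la Cacna1s then led (top 1.07%), ahead of Casq1 (top 1.45%), and another Cacna1s peak stood higher (top 0.611%). In MT the H3K18la order ran from Jph2 (top 0.0794%) and Atp2a1 (top 6.68%) through Casq2 at 8.18%, Jph1 at 13.5%, Casq1 at 24.8%, Cacna1s at 28.4%, and Ryr1 at 51.8% to Pvalb at 61.1%. Total signal grows with width, so the rank and the width of a peak are not separate measures.

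**Figure D5:**
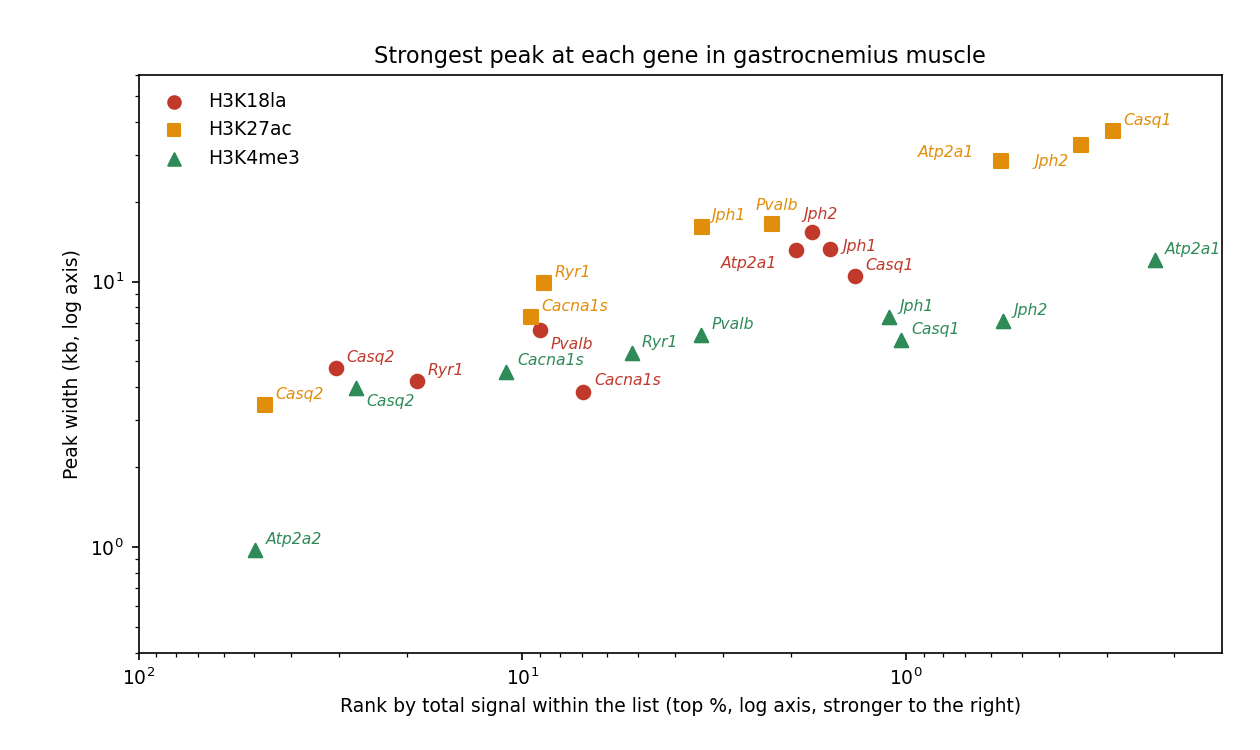
Width in kb against rank by total signal (top percent of its own list, stronger to the right, both axes logarithmic) of the strongest peak at each gene in GAS, for H3K18la (circles), H3K27ac (squares) and H3K4me3 (triangles). Casq1, Jph2 and Atp2a1 lie in the top 1.94% or better for all 3 marks, and Casq2 and Atp2a2 at the weak end where they have a peak.

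The other genes of the pathway were read from a list of 30, covering channel subunits, release channels, triad proteins, pump regulators and entry or exchange proteins. The list was drawn up with earlier results of these data known. In GAS 23 of the 30 had an H3K18la promoter peak (36.1% of all genes), in MT 21 (34.8%) and in MB 6 (11.1%). In ADIPO 11 did (44.7% of all genes), in PIM 14 (37.8%), in BMDM 7 (18.5%), in mESC-ser 14 (33.4%) and in mESC-2i 14 (37.8%). Of triad and reticulum proteins 10 of 12 were called in GAS and 10 in MT, and of release channels and their partners 2 of 4 in GAS and 3 of 4 in MT. By share covered, 24 of the 30 were higher in muscle for H3K18la, against 39.6% of all genes tested. Their median difference was 5.64 points against -1.29 over all genes tested, and none passed the adjusted test. For H3K27me3, 20 of the 30 were covered, of which 14 were lower and 6 higher in muscle, and 59.9% of all genes tested were lower. Their median difference was -0.96 points against -1.35 over all genes tested.

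The listed genes with every muscle list above every other list for H3K18la were 4 of the 30, Cacna2d1, Cacng1, Stac3 and Slc8a3, an order that 2.50% of all tested genes had. Cacng1, the gamma subunit that sits with Cacna1s in the channel, was covered to between 23.6% and 54.9% in muscle and 0% elsewhere (exact permutation p = 0.0179, adjusted 0.730). Stac3, the adaptor that couples Cacna1s to Ryr1, was covered to between 27.7% and 37.0% in muscle and at most 16.6% elsewhere (exact permutation p = 0.0357, adjusted 0.878). Slc8a3, a sodium-calcium exchanger, reached 3.29% to 15.9% in muscle and 0% elsewhere, and Cacna2d1, another channel subunit, 1.45% to 8.53% against at most 0.796% (exact permutation p = 0.0179 and adjusted 0.730 for each). For H3K27me3, 4 of the 20 covered genes had every muscle list below every other list (Cacng1, Stac3, Cav3, Speg), against 7.23% of all tested genes. Slc8a3 had more H3K27me3 in muscle on average (28.0% against 8.22%, exact permutation p = 0.257, adjusted 0.726).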

How the data were processed

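The authors trimmed reads with Trim Galore 0.6.6, aligned them with Bowtie2 2.4.4 to mm10 and called peaks with SEACR 1.3 in stringent mode, keeping the top 1% of regions on signal merged over replicates. The deposited lists give per peak a total and a maximum signal (coverage, in whole numbers, not scaled to depth), so signal was compared only as rank within a list, except in choosing the Jph2 region, where total signal was set across the 3 muscle H3K18la lists. The lists carry no sequencing depth, which limits the calls, and per the study's read counts the second ADIPO H3K27ac replicate was far shallower than the first. The serum stem cell lists of H3K27me3 and H3K4me3 were assigned by their sample descriptions. Peaks on chromosomes 1 to 19 and X were set against GENCODE vM21 (same assembly) with 1 bp of overlap, in Python 3.11.15 with numpy 2.4.6. Interval counts were checked against bedtools 2.31.1, and the permutation test was tested on simulated data. The members and gene lists were chosen with earlier results of these data known. Listed pathway genes outside the 10 are named where every muscle H3K18la list lay above or below every other. Cav3 and Speg are named for this order in H3K27me3 alone. Replicate labels do not enter, since lists were pooled. The alternatives tried changed window, start sites, overlap, list length, cell types and scaling.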

Additional observations from a re-analysis of the deposited data

How the results depend on the processing

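Pooled lists leave no replicate error, calls depend on the caller's threshold and on list size, and GAS is whole tissue. No paired analysis was possible because the replicates were pooled before peak calling, so no list carries a replicate number. Promoter calls of H3K18la held 60% of gene and list pairs in muscle and 18% elsewhere, against 27.3% and 34.5% over all protein-coding genes. With 5000 strongest peaks per list these became 30% and 4.0% (all genes 6.40% and 9.56%), and with lists cut to equal bases 16.7% and 0% (all genes 3.36% and 7.93%). Leaving out cell types gave 50% in muscle without GAS or without MT (all genes 23.0% and 23.6%) and 80% without MB (all genes 35.4%). Outside muscle the share ran from 10.0% without mESC-ser (all genes 34.7%) to 22.5% without PIM or without BMDM (all genes 33.6% and 38.5%). With equal bases H3K27ac fell from 70% to 40% in GAS (all genes 47.0% to 4.27%) and from 15.0% to 7.5% elsewhere (all genes 42.3% to 32.6%), and with 5000 peaks to 0% elsewhere (all genes 16.7%). H3K4me3 outside muscle (23.3%, all genes 56.6%) became 6.67% and 13.3% under 5000 peaks and equal bases (all genes 24.7% and 49.7%), as did H3K27me3 in muscle (23.3%, all genes 18.9%, then 9.70% and 9.79%), and H3K27me3 elsewhere (52.5%, all genes 23.8%) became 27.5% with equal bases (all genes 13.2%). Body calls fell under 5000 peaks from 50% to 20% in muscle (all genes 17.5% to 5.35%) and from 18% to 8.0% elsewhere (all genes 15.8% to 4.77%). Ranking the same peaks by maximum signal moved the median rank to the top 8.57% (GAS H3K18la), 28.9% (MT, from 19.1%), 7.71% (GAS H3K27ac, from 2.82%) and 21.0% (GAS H3K4me3, from 3.42%). Genes with every muscle list above the rest for H3K18la numbered 1 of the 10, 2 among nuclei and 1 to 6 with a cell type left out. The 6 came without MB, when 10.3% of all genes had this order. Fewer lists make this order easier to reach. The 2 among nuclei therefore cannot be set against the 2.50% of tested genes that had it over all lists, and are description only. For H3K27me3, genes with every muscle list below the rest numbered 3, and 3 to 5 with a cell type left out, the 5 without MT. The median H3K18la difference over the covered genes among the 10 (17.6 points) was 8.05 with 5000 peaks, 8.93 with shares divided by the genome share of the list and 8.89 (without GAS) to 26.4 (without MB) with a cell type left out. Over all genes the median turned from -1.29 to 0.197 among nuclei. It was 0.202 among cell types with the tag antibody, which leaves out ADIPO and mESC-2i. For H3K27me3 the median over the covered genes among the 10 (-12.9) was -27.6 with 5000 peaks, -20.6 with equal bases, -31.2 with promoters only, -23.1 among nuclei and -20.4 (without mESC-2i) to -9.55 (without MB) with a cell type left out. Ryr1 turned to 1.32 points (promoters only) and 2.16 (nuclei), and Casq2 to -1.07 (5000 peaks). No adjusted p of the 10 genes was under 0.365 in any alternative, and no gene passed 0.05 after adjustment. The Jph2 region under 5000 peaks had 0% H3K4me3 in GAS and mESC-2i, and 9.02% H3K27me3 in BMDM and 29.5% in mESC-2i. The window at the 5′ end only was added after the data were seen and moved no promoter share by over 1.5 times.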
